A study of Homo sapiens with 7 samples.

Results

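KIT, FLT3, CSF1R, CSF2RB, CSF3R, IL6R, TGFBR2 and IGF1R encode 8 receptors through which myeloid progenitor cells receive growth factor signals. They were named for what they encode, with earlier results of these data known, and are 8 of the 20136 protein-coding genes of the annotation. Binding at these genes was read from ChIP-seq (sequencing of the DNA that an antibody recovers together with a protein or histone mark) in Kasumi-1, an established human leukaemia cell line described as a myeloblast line from peripheral blood. Kasumi-1 carries the t(8;21) translocation and expresses the AML1-ETO fusion protein, and all groups used here are this line in log-phase growth, with no treatment named, so no group lacks the fusion protein. The 5 groups are defined by the antibody, and each is a list of peak summits made from 2 pooled biological replicates: AML1-ETO with 18087 summits, its normal counterpart AML1 with 11692, the co-regulators N-CoR (10004) and p300 (11020), and the trimethylated lysine 4 of histone H3 (H3K4me3) with 19632. The lists give positions only, so neither a height nor a read depth stands behind a summit, and no spread between replicates can be given. The H3K27me3 and input samples were not analysed here.

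As background, KIT, FLT3, CSF1R and IGF1R are receptor tyrosine kinases, which are activated as dimers when their ligand binds and signal through RAS, PI3 kinase and STAT proteins. CSF2RB, the common beta chain, and CSF3R and IL6R are cytokine receptor chains without a kinase domain of their own. CSF2RB and CSF3R signal through associated JAK kinases, whereas IL6R is a chain that binds the ligand. TGFBR2 is the serine/threonine kinase that binds TGF-beta and passes the signal to SMAD proteins, and it restrains the growth of many blood cells. AML1 (RUNX1) binds the Runx sequence TGTGGT. AML1-ETO keeps its DNA-binding domain and joins it to ETO, a protein that binds the co-repressor N-CoR, whereas p300 is a histone acetyltransferase and co-activator. H3K4me3 marks active promoters. Here the AML1 antibody was directed against the end of AML1 that the fusion protein lacks, and the AML1-ETO list was made with an antibody against ETO.

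The labelled cell type was checked against H3K4me3 at transcription starts. All 8 listed genes of myeloid progenitors (CD34, MPO, CD33, KIT, SPI1, CEBPA, AZU1 and PRTN3) had an H3K4me3 summit within 1000 bp of a start. None of the 4 T cell genes and none of the 4 erythroid genes did. Of the 4 liver genes, only SERPINA1 did.

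Sequences of GRCh37 at the sites described below are printed first, on the plus strand. They are the 100 bp windows around summits, lower case except for matches to the Runx consensus (TGTGGT, or ACCACA on the opposite strand) and to the ETS core (AGGAAG, or CTTCCT on the opposite strand), which are in capitals. The ETS core is part of many binding sites of PU.1, a master regulator of myeloid cells. The first set comes from CSF1R, where the intronic sites and the promoter site differ. The promoter window is cut to the 39 bp that lie outside annotated untranslated sequence.
CSF1R AML1-ETO peak 527, chr5:149461533-149461632: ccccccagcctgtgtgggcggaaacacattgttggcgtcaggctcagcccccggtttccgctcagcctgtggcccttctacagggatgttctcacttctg
CSF1R AML1-ETO peak 121, chr5:149462161-149462260: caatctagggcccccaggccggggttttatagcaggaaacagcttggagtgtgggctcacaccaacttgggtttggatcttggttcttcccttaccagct
CSF1R AML1-ETO peak 15242, chr5:149466171-149466209: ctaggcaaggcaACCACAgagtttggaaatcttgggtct
Neither intronic CSF1R window holds TGTGGT or AGGAAG, and the promoter stretch holds a Runx match. The second set comes from intron 1 of KIT, where AML1-ETO and the other 3 proteins have summits in neighbouring windows that each hold a Runx match.
KIT AML1-ETO peak 535, chr4:55554234-55554333: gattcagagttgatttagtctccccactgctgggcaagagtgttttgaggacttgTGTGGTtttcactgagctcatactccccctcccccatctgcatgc
KIT N-CoR peak 53, chr4:55554565-55554664: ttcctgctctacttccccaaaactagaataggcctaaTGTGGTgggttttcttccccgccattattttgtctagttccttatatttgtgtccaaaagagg
KIT AML1-ETO peak 8695, chr4:55557770-55557869: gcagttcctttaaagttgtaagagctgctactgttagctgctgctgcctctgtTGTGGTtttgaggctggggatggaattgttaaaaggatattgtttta
The third set shows sites away from promoters at which AML1-ETO and N-CoR, with AML1 at all 4, overlapped in IL6R, TGFBR2 and IGF1R. A Runx match is present at the IL6R site and at the TGFBR2 site in intron 1, but not at the other two.
IL6R AML1-ETO peak 841, chr1:154376039-154376138: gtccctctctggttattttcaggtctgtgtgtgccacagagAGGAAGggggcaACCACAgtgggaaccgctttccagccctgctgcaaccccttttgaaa
TGFBR2 AML1-ETO peak 8363, chr3:30684432-30684531: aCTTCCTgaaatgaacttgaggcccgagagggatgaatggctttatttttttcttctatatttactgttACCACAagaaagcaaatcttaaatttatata
TGFBR2 AML1-ETO peak 3488, chr3:30688151-30688250: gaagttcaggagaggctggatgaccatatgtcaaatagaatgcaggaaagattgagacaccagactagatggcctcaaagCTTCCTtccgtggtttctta
IGF1R AML1-ETO peak 2380, chr15:99499797-99499896: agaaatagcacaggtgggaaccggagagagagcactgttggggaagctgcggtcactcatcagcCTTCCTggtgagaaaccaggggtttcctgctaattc

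In the full lists, AML1-ETO was the protein with the most summits at the receptor genes, and its list is also the longest of any protein here. The order turned with the first 5000 summits of each list, where N-CoR had 15 and AML1-ETO 11. That cut keeps 5000 of 10004 N-CoR summits but 5000 of 18087 AML1-ETO summits, and what the list order stands for is not given. Within the gene bodies and 5 kb on either side, the lists placed 40 AML1-ETO summits, 19 of N-CoR, 15 of AML1, 14 of p300 and 14 of H3K4me3. TGFBR2 held 13 of the AML1-ETO summits, IL6R 7, KIT 6, CSF1R 5, IGF1R 5, FLT3 2, CSF3R 2 and CSF2RB none. Thus 7 of the 8 genes had at least 1 AML1-ETO summit, beside 41.4% of all protein-coding genes. AML1 was present at 5 of 8 (34.9% of all genes), N-CoR at 6 (26.7%), p300 at 6 (45.6%) and H3K4me3 at 7 (68.1%). At least 5 AML1-ETO summits were found at 5 of the 8 genes, and at 2.79% of all genes.

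The receptor genes are long, with a median span of 73887 bp beside 27217 bp for all protein-coding genes, and a longer gene has more room for summits. Among the genes that span 50 kb or more, a limit chosen after the values had been seen, all 6 receptor genes had an AML1-ETO summit (54.1% of such genes) and 5 of the 6 had at least 5 (6.60%). Per 100 kb of sequence, the receptor loci held 4.80 AML1-ETO summits, beside 1.04 over the loci of all protein-coding genes. The same densities were 2.28 and 0.564 for N-CoR, 1.80 and 0.671 for AML1, 1.68 and 0.854 for p300, and 1.68 and 1.57 for H3K4me3. The density varied among the receptor genes themselves, from 13.3 AML1-ETO summits per 100 kb at TGFBR2 and 9.43 at IL6R to 1.86 at FLT3, 1.53 at IGF1R and 0 at CSF2RB. Only 19 protein-coding genes had more AML1-ETO summits than TGFBR2, whereas 1821 had more than FLT3 or CSF3R.

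**Figure D1:**
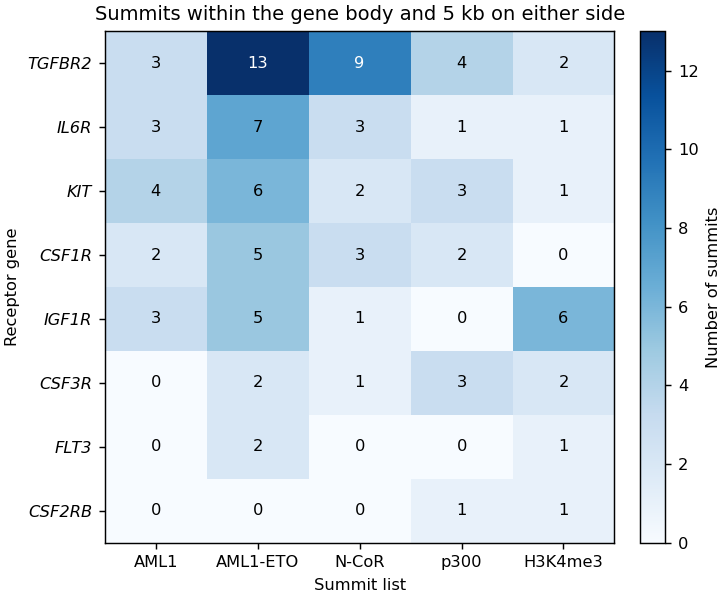
Number of summits of the 5 lists (columns) within the gene body and 5 kb on either side of each receptor gene (rows, ordered by AML1-ETO summits). The AML1-ETO column runs from 13 at TGFBR2 to 0 at CSF2RB, and the H3K4me3 column is highest at IGF1R, with 6.

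By the MANE Select transcript, the reference transcript of each gene, 25 of the 40 lay in introns, 12 upstream of the start, 2 in exons and 1 downstream. Introns thereby held 62.5% of the summits. Counted the same way, they held 47.1% over all protein-coding genes with a MANE Select transcript and 61.6% over those that span 50 kb or more. AML1-ETO stood within 1000 bp of an annotated start of the gene itself at 7 of the 8 genes, all but CSF2RB, beside 23.4% of all genes. At IGF1R this start was that of a short transcript within the gene, 220 bp from a summit, and not the MANE Select start. N-CoR did so at 2, IL6R and TGFBR2 (13.4%), p300 at 5, KIT, CSF2RB, CSF3R, IL6R and TGFBR2 (37.0%), and H3K4me3 at 7, all but CSF1R (62.4%). With starts of neighbouring genes included, 15 of the 40 AML1-ETO summits (37.5%, exact 95% interval 22.7 to 54.2) lay at a promoter, beside 34.5% of the whole list and 42.8% of the AML1-ETO summits within 5 kb of any protein-coding gene. H3K4me3 lay within 1000 bp of 9 of them (22.5%, 10.8 to 38.5), beside 27.4% and 33.9%. Both intervals contain both values. These Clopper-Pearson intervals cover counting error over peaks only.

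**Figure D2:**
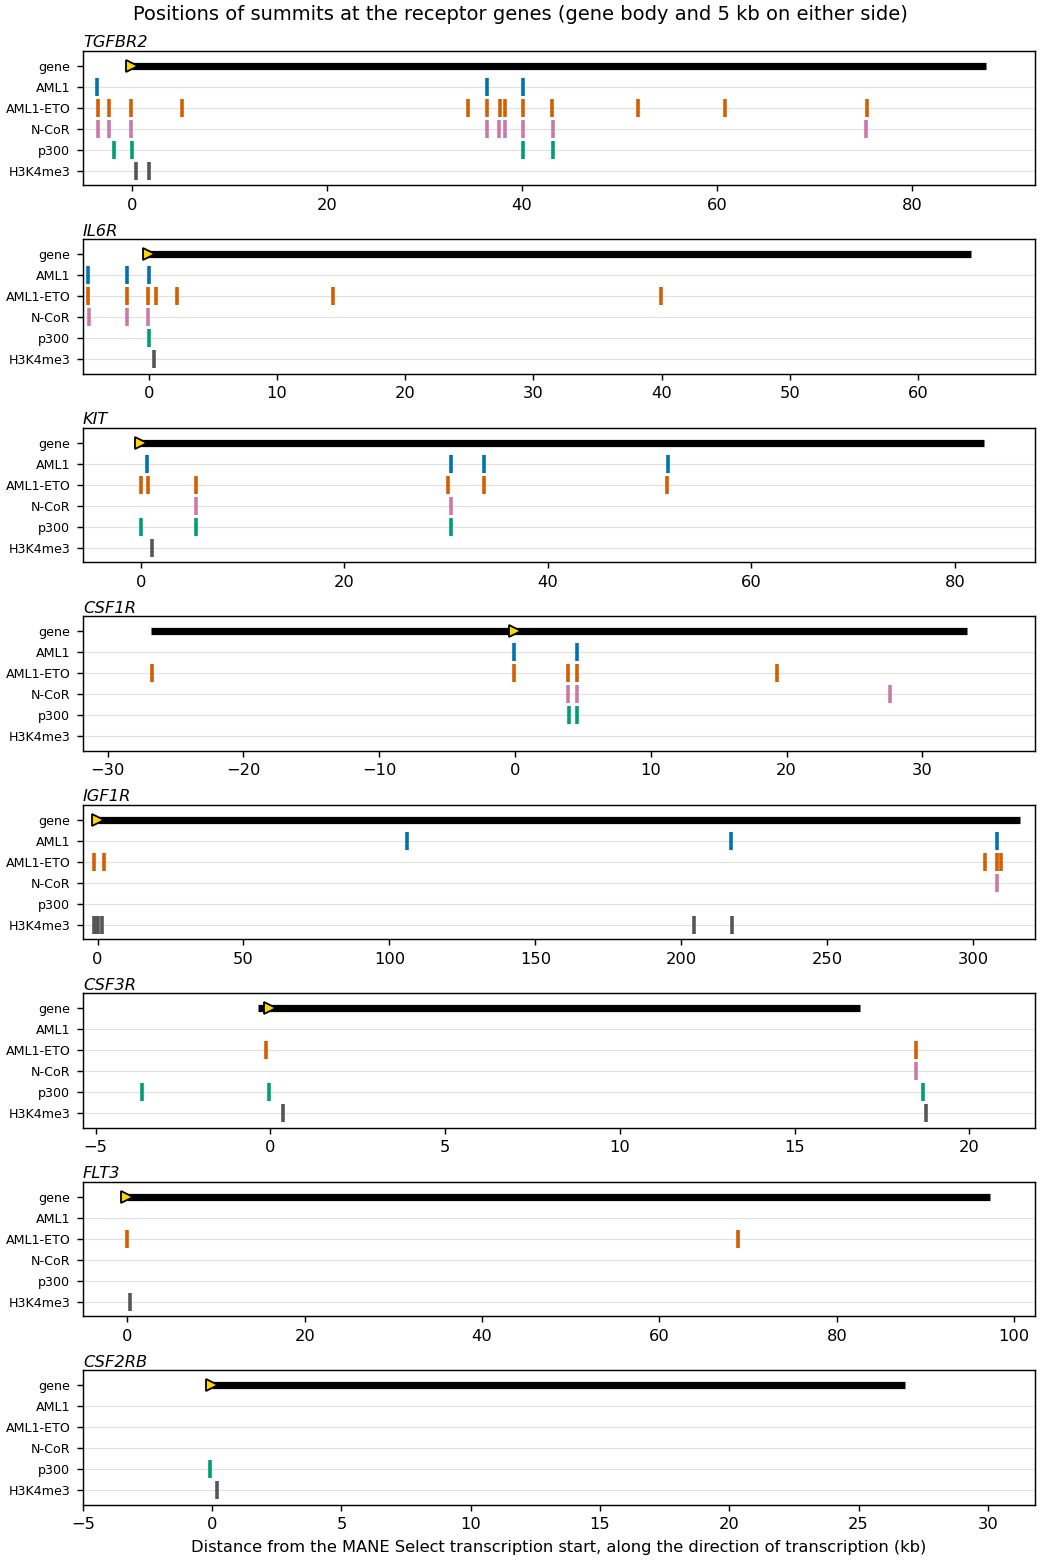
Position of every summit along each receptor gene, as distance in kb from the MANE Select start (triangle) in the direction of transcription, with the gene body as a black bar and a row for each list. TGFBR2 shows a run of AML1-ETO and N-CoR summits near 40 kb, and IGF1R has its AML1-ETO summits only at the ends of the gene.

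KIT, the receptor of stem cell factor, had 6 AML1-ETO, 4 AML1, 3 p300, 2 N-CoR and 1 H3K4me3 summits. The gene spans 55523434 to 55606949 on the plus strand of chromosome 4. At the promoter, an AML1-ETO summit stood 11 bp upstream of the MANE Select start, with a p300 summit 54 bp away and no N-CoR. A second one 655 bp downstream of that start lay 36 bp from an AML1 summit and 431 bp from the H3K4me3 summit. The remaining 4 were in introns, 3 of them in intron 1.

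The intronic KIT sites differed in their partners. At 5455 bp, AML1-ETO overlapped N-CoR (13 bp between summits) and p300 (50 bp), but not AML1, and its window held an ETS core. At 33696 bp it overlapped AML1 alone, 8 bp away, with the Runx match printed above, and in intron 7 it overlapped AML1 alone at 47 bp. The AML1-ETO summit at 30160 bp overlapped none of the others, yet 331 to 360 bp further on the summits of N-CoR, p300 and AML1 lay within 29 bp of each other. Both the AML1-ETO window and the N-CoR window there hold TGTGGT, as printed above. This group was the only site of AML1, N-CoR and p300 without an AML1-ETO window among the receptor genes. The lists hold summits and not peak widths, so whether the AML1-ETO peak reached that group cannot be read from them. Past the end of KIT, at 55612586 to 55612635, all 4 proteins had summits within 49 bp, and the AML1-ETO window there held 2 Runx matches.

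FLT3, the receptor of FLT3 ligand on early progenitors, had few sites. It spans 28577411 to 28674729 on the minus strand of chromosome 13. AML1-ETO had a summit 52 bp upstream of the MANE Select start, 355 bp from the H3K4me3 summit, and another in intron 15. No AML1, N-CoR or p300 summit was found within 5 kb of FLT3. Within 50 kb, overlapping N-CoR and p300 summits lay at the start of the neighbouring gene PAN3, 241 and 227 bp from that start. An AML1-ETO summit stood 138 bp from N-CoR and 152 bp from p300 there, so that its window overlapped neither. The nearest AML1 summit stood 145101 bp from the FLT3 start.

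CSF1R, the receptor of macrophage colony-stimulating factor, held a pair of intronic sites with both co-regulators. The gene spans 149432854 to 149492935 on the minus strand of chromosome 5, and its first intron after the coding start is known to hold an enhancer, the fms-intronic regulatory element. The deposited files do not give the bounds of that element. AML1-ETO peak 527 lay in this intron, 4534 bp downstream of the MANE Select start (intron 1 of that transcript and intron 2 of CSF1R-201, which starts far upstream). The N-CoR, AML1 and p300 summits were 34, 38 and 41 bp from it, and these 3 lay within 7 bp of each other. AML1-ETO peak 121 lay 628 bp away, with N-CoR at 27 bp and p300 at 68 bp but no AML1. Both windows hold the shorter sequences TGTGG and GGAA, with 2 and 1 matches of TGTGG and 2 matches of GGAA each. The shorter TGTGG, which was tried after the data had been seen, also occurred in 60.1% of all AML1-ETO windows and in 24.0% of windows 1000 bp to either side.

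The CSF1R promoter carried AML1-ETO and AML1 without either co-regulator. The AML1-ETO summit stood 43 bp upstream of the MANE Select start and the AML1 summit 18 bp from it. Besides the Runx match printed above, the full window holds an ETS core. A further AML1-ETO summit lay 108 bp past the far upstream start, in a window with 4 ETS core matches, and another in intron 10, 59 bp from the start of a shorter CSF1R transcript. An N-CoR summit in intron 14 overlapped no other protein. H3K4me3 had no summit within 50 kb of CSF1R, and the nearest was 85619 bp from the MANE Select start. CSF1R was thereby the only one of the 8 genes without H3K4me3 within 5 kb.

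IGF1R, the receptor of insulin-like growth factor 1, had AML1-ETO only at its ends. The gene spans 99191768 to 99507759 on the plus strand of chromosome 15. One AML1-ETO summit lay 1208 bp upstream of the MANE Select start, 40 bp from the start of the antisense transcript IRAIN and 48 bp from an H3K4me3 summit. Another lay at 2153 bp in intron 1, with a Runx match. The next was 301883 bp further on, in intron 20, and also held a Runx match, but overlapped no other protein. In the same intron, 4043 bp beyond it, AML1-ETO peak 2380 overlapped AML1 (17 bp) and N-CoR (13 bp). A last summit lay in exon 21. The other 2 AML1 summits of IGF1R stood in intron 2 without AML1-ETO, one of them 468 bp from H3K4me3. IGF1R had no p300 summit, and it had 6 of H3K4me3, more than any other of the 8 genes.

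The cytokine receptor chains ranged from no AML1-ETO summit to 7. CSF2RB, the chain shared by the receptors of GM-CSF, interleukin-3 and interleukin-5, spans 37309670 to 37336481 on the plus strand of chromosome 22. It had a p300 summit 92 bp upstream of its start and an H3K4me3 summit 202 bp downstream, and no AML1, AML1-ETO or N-CoR summit within 50 kb. The nearest AML1-ETO summit was 51147 bp from its start. CSF3R, the receptor of granulocyte colony-stimulating factor, spans 36931644 to 36948879 on the minus strand of chromosome 1. AML1-ETO stood 120 bp upstream of its start and overlapped p300 (90 bp apart), in a window with 3 ETS core matches. The other AML1-ETO summit within 5 kb overlapped N-CoR, 6 bp away, but lay 66 bp from the start of the neighbouring gene MRPS15. A further p300 summit, 3687 bp upstream of CSF3R, stood alone.

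IL6R, the ligand-binding chain of the interleukin-6 receptor, spans 154377669 to 154441926 on the plus strand of chromosome 1. It had 7 AML1-ETO summits, 5 of them within 6942 bp around the promoter. The 3 upstream ones, at 4756, 1730 and 50 bp from the MANE Select start, each overlapped AML1 and N-CoR. At 1730 bp the AML1 summit was 2 bp and the N-CoR summit 5 bp from that of AML1-ETO, and the window printed above holds a Runx and an ETS core match. At 50 bp, p300 joined them, 58 bp away, and H3K4me3 stood 435 bp downstream. None of the 4 AML1-ETO summits downstream of the MANE Select start overlapped AML1, N-CoR or p300, and 2 of these had a Runx match. In the wider 50 kb, 5 further AML1-ETO summits were found, 4 of them in the neighbouring gene SHE.

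TGFBR2 had the most sites. It spans 30648093 to 30735634 on the plus strand of chromosome 3, and held 13 AML1-ETO, 9 N-CoR, 4 p300, 3 AML1 and 2 H3K4me3 summits. Every N-CoR summit overlapped an AML1-ETO window, so that 9 of the 13 AML1-ETO summits carried N-CoR. Only 16 protein-coding genes had more N-CoR summits. Upstream, AML1-ETO lay 3476 bp (with AML1 and N-CoR), 2343 bp (with N-CoR) and 36 bp (with N-CoR and p300) from the start, the last 435 bp from H3K4me3. Within the gene, 6 summits lay in 8703 bp that include exon 2, and 5 of these 6 carried N-CoR.

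In that stretch, the partners changed from site to site. At 36389 bp, in intron 1, AML1-ETO peak 8363 lay 10 bp from both AML1 and N-CoR, in the window with Runx and ETS core matches printed above. The next pair, in intron 1 and exon 2, carried N-CoR alone. At 40108 bp, in intron 2, all 4 proteins met, with AML1 and p300 each 11 bp and N-CoR 33 bp from AML1-ETO peak 3488. The last, at 43120 bp, carried N-CoR and p300 without AML1. The N-CoR summit in intron 5 also overlapped AML1-ETO, 39 bp away. The 4 AML1-ETO summits without N-CoR were in introns 1 and 3, and 2 of them had a Runx match.

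Across the receptor genes, the shares of AML1-ETO summits with each co-regulator were near those of the whole list. N-CoR overlapped 17 of the 40 (42.5%, 27 to 59.1) and p300 9 (22.5%, 10.8 to 38.5), beside 38.9% and 21.8% of the whole list. Both were present at 7 (17.5%), N-CoR without p300 at 10 (25%), p300 without N-CoR at 2 (5.0%), at the KIT and CSF3R promoters, and neither at 21 (52.5%). The whole list gave 15.7%, 23.2%, 6.10% and 55%. TGFBR2 supplied 9 of the 17 sites with N-CoR, and without it the shares were 29.6% for N-CoR and 22.2% for p300. At KIT, p300 overlapped 2 AML1-ETO summits and N-CoR 1, and at CSF1R and CSF3R the counts were equal. AML1 overlapped 12 (30.0%, 16.6 to 46.5), beside 46.2% of the whole list, a value at the upper end of that interval. All 3 other proteins met AML1-ETO at 3 sites (7.50%), in CSF1R, IL6R and TGFBR2, beside 11.8% of the whole list.

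**Figure D3:**
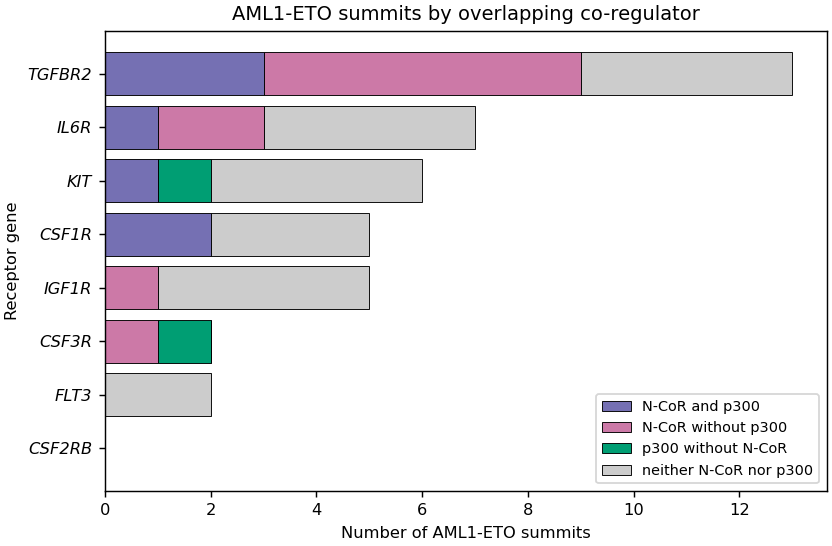
Number of AML1-ETO summits at each receptor gene, split by whether the windows of N-CoR and p300 overlapped them. N-CoR is present at 9 of 13 summits of TGFBR2, and CSF1R has 2 summits with both co-regulators.

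By gene, at least 1 AML1-ETO summit overlapped by N-CoR was found at 6 of the 8 (19.2% of all protein-coding genes), all but FLT3 and CSF2RB. With p300 it was found at 5 (15.3%), and with AML1, N-CoR and p300 together at 3 (7.96%). Merging the overlapping windows of the 4 proteins gave 48 sites. AML1-ETO alone made up 17 of these, at all the genes but CSF2RB and CSF3R. That is 42.5% of the 40 AML1-ETO summits, beside 38.3% of the whole list. A single protein was present at 24 sites, 2 at 11, 3 at 10 and all 4 at 3. Where windows overlapped, the median distance to the AML1-ETO summit was 21.0 bp for AML1, 26.0 bp for N-CoR and 50.0 bp for p300. Over the whole list, these medians were 20.0, 21.0 and 28.0 bp.

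**Figure D4:**
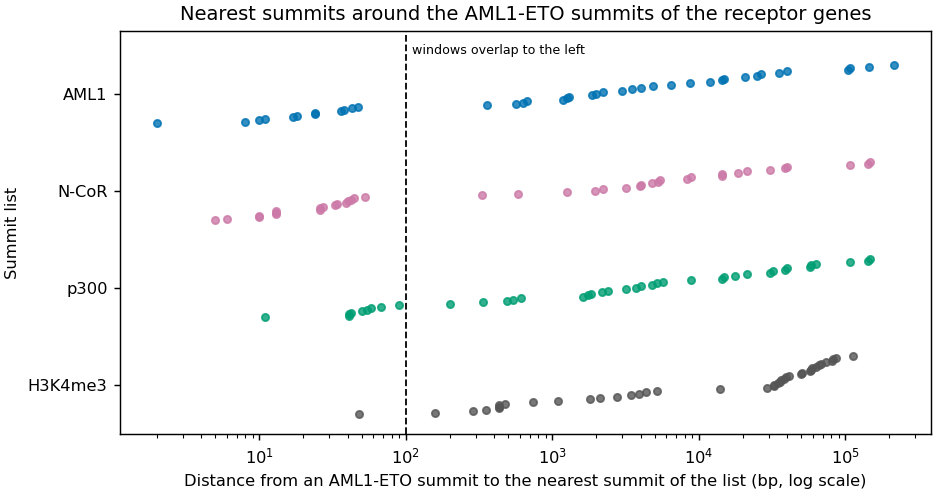
Distance in bp (log scale) from each of the 40 AML1-ETO summits to the nearest summit of AML1, N-CoR, p300 and H3K4me3, sorted within a list. Points left of the dashed line, at 100 bp, have overlapping windows: 12 for AML1, 17 for N-CoR and 9 for p300.

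The Runx consensus TGTGGT was present in 12 of the 40 AML1-ETO windows (30.0%, 16.6 to 46.5), beside 31.3% of the whole list. In windows 1000 bp to either side, the shares were 6.25% and 6.57%. The ETS core AGGAAG was present in 16 (40.0%), beside 37.5% of the whole list, and in 8.75% and 10.9% of the windows to either side. GAGGAA, a PU.1 sequence that overlaps the ETS core where it runs on as GAGGAAG, was present in 10 (25%, whole list 26.0%). TTGNNCAA, a sequence bound by C/EBP factors, was present in 2 (5.0%, whole list 4.47%). Runx and ETS core matches occurred together in 5 windows (12.5%, whole list 11.1%). Of the 17 windows with N-CoR, 3 held TGTGGT and 8 AGGAAG, and of the 23 without N-CoR, 9 held TGTGGT and 8 AGGAAG. In the whole list, TGTGGT was present in 28.4% of windows with N-CoR and 33.1% of those without, and AGGAAG in 45.6% and 32.3%. At the receptor genes the exact 95% intervals overlapped, 3.8 to 43.4% with and 19.7 to 61.5% without N-CoR for TGTGGT, so no order can be read from these counts. A match is a description of the sequence, and no match says only that these letters are not in the window.

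**Figure D5:**
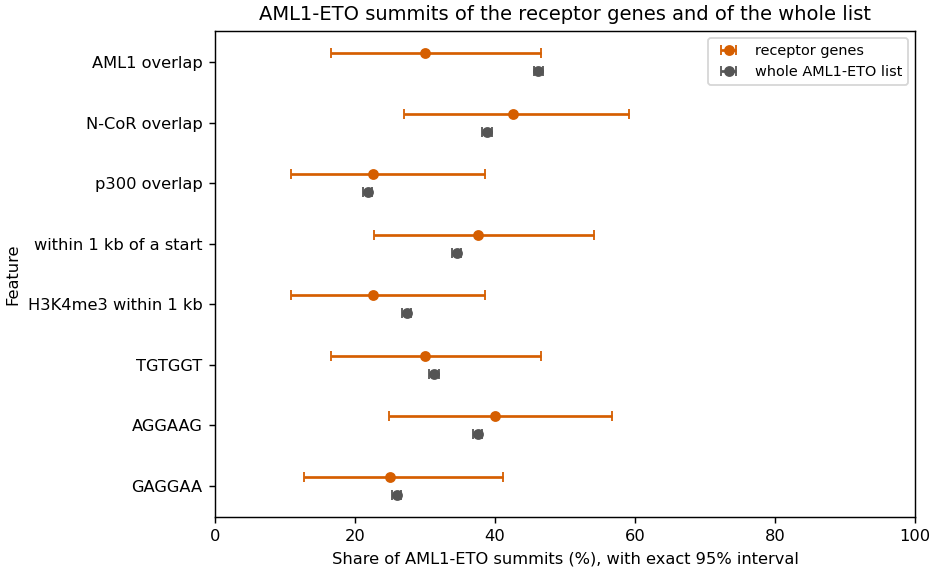
Share of AML1-ETO summits (%) with each feature at the receptor genes (40 summits) and in the whole list (18087 summits), with exact 95% intervals for counting error. The interval of the receptor genes contains the value of the whole list for every feature shown, and the gap is widest for AML1, 30.0% against 46.2%.

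The other genes of these pathways were taken from a list of 57 ligands, receptor chains, signal transducers and inhibitors. That list, too, was chosen with earlier results of these data known. AML1-ETO had at least 1 summit within 5 kb at 38 of the 57 (41.4% of all protein-coding genes), N-CoR at 23 (26.7%), AML1 at 33 (34.9%), p300 at 35 (45.6%) and H3K4me3 at 47 (68.1%). AML1-ETO overlapped by N-CoR was found at 21 (19.2%). By class, AML1-ETO was present at 5 of 12 ligands, 8 of 14 other receptor chains, 17 of 20 signal transducers and 8 of 11 inhibitors. The share of ligand genes was thus near that of all genes. Gene length differed between these classes, with a median span of 18072 bp for the ligands, 48114 bp for the other receptor chains, 88546 bp for the signal transducers and 13674 bp for the inhibitors, and its part in these counts was not tested. Among the ligands, TGFB1, which encodes TGF-beta 1, had 12 AML1-ETO summits, 7 with N-CoR and 3 with p300. FLT3LG, CSF1, CSF3 and IL5 had 1 each. The other 7 ligand genes, KITLG, IL34, CSF2, IL6, IGF1, IGF2 and IL3, had none. Among the receptor chains, INSR, the insulin receptor, had 7, and TGFBR1, the signalling partner of TGFBR2, and IGF2R, which clears IGF2, had 3 each.

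Among the signal transducers, SMAD3, which carries the TGF-beta signal to the nucleus, had 12 AML1-ETO summits and PIK3CD, a PI3 kinase subunit of blood cells, had 9. STAT3, GRB2 and INPP5D tied with 4 each. Among the inhibitors, SH2B3, an adaptor that dampens KIT and JAK2 signalling, had 11, DUSP6, a phosphatase of ERK, 4 and SPRY2, an inhibitor of the RAS pathway, 3. N-CoR overlapped 2 of the 12 AML1-ETO summits of SMAD3, 4 of the 9 of PIK3CD, 5 of the 11 of SH2B3 and all 4 of DUSP6. CSF2RA and IL3RA, the alpha chains that pair with CSF2RB, had no summit of any list. They lie in the pseudoautosomal region shared by X and Y, where reads can match both chromosomes, and are counted above as genes without a summit.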

How the data were processed

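Kasumi-1 chromatin was recovered with antibodies against 5 targets and sequenced. Per the labels and the study's methods, the authors aligned reads to GRCh37 (hg19) with Bowtie 0.12.8, allowing up to 2 mismatches, pooled 2 biological replicates per antibody and called peaks with MACS2 2.0.10.20131216 at p < 1e-20. The deposited lists hold intervals of 100 bp, 50 bp to either side of a summit, with a numbered name and no score, height or p-value. Numbered names in the N-CoR, p300 and H3K4me3 lists carry the name of another antibody, and each list was taken as its sample is labelled. What the order of the lists stands for is not given in the sources used here. Depth per sample is not in the lists, so precision is limited by the number of summits.

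The 8 genes and the gene lists were chosen with earlier results of these data known. Gene spans came from GENCODE release 44 lifted to GRCh37, the build of the lists, with 254413 transcripts. Summits were counted within 5 kb and 50 kb of each gene and, by the same rule, at 20136 protein-coding genes. Where a symbol was found more than once, 1 entry was kept, and 27 surplus entries were left out. Windows of different lists overlapped when they shared at least 1 bp. A promoter lay within 1000 bp of an annotated start. Motifs were searched on both strands within 50 bp of a summit. All 8 genes were described, with up to 3 further genes per pathway class, those with the most AML1-ETO summits and any tied with them, and the 3 genes most alike in counts for each of the 3 receptor genes with the most AML1-ETO summits. The ligand genes without AML1-ETO, CSF2RA and IL3RA were named outside this rule, after their values had been seen. With 1 pooled list per antibody there was no test. Alternatives were other window widths, distances, motifs, the first 5000 summits of each list and leaving out each gene, and TGTGG was added after the data had been seen. In simulated data, all 3000 planted overlaps among 10000 peaks were recovered. The genome was indexed with samtools 1.23.1 and read with pysam 0.24.0 under Python 3.11.15, intervals were computed with SciPy 1.17.1 and numpy 2.4.6, and plots were drawn with matplotlib 3.10.9. A further marker list was examined and is not reported here.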

Additional observations from a re-analysis of the deposited data

How the results depend on the processing

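Of 107 alternatives, 99 left a value within its error or within 1.5 times its count, and 8 moved it. Restricting each list to its first 5000 summits left 11 AML1-ETO, 8 AML1, 8 p300 and 3 H3K4me3 summits at the receptor genes. The N-CoR count, 15, was not among the moved values, and it then exceeded that of AML1-ETO. The cut keeps a larger part of the N-CoR list, which is shorter than the AML1-ETO list. Under this restriction, N-CoR overlapped 72.7% of the AML1-ETO summits (8 of 11), beside 54.4% of the whole list under the same restriction. Windows of 25 bp on either side of the summit lowered the share with p300 to 10.0%, and to 16.4% in the whole list. The shorter motifs raised shares by their construction, to 57.5% for TGTGG and 87.5% for GGAA, and GGAA was present in 84.0% of the whole list. Leaving out each gene in turn gave 29.6 to 47.1% for N-CoR, 26.5 to 33.3% for AML1 and 20.0 to 25.7% for p300. A stricter peak threshold was not run, since the lists hold no score. No paired analysis was possible because the replicates were pooled into 1 list per antibody.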

Other observations

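Genes with the most similar counts of all 5 lists were looked up for the 3 receptor genes with the most AML1-ETO summits, by the sum of absolute differences over the 5 counts. PPARD, which encodes a nuclear receptor, had the same 5 counts as IL6R, and LARS2 and PRR5L differed from it by 1 summit. For TGFBR2, KIF26B differed by 4 summits, and TSPAN14 and ENSG00000283782 by 5. For KIT, 10 genes differed by 2, among them UCK2, MARK2 and PXN.

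The numbers of the AML1-ETO peaks place 5 of the 40 summits of the receptor genes among the first 1000 of the 18087 in the deposited list. They are the pair in the CSF1R intron (peaks 121 and 527), the IL6R promoter (382), the KIT site in intron 1 (535) and the IL6R site 1730 bp upstream of the start (841). Of all 40, 17 lie in the first 50% of the list. What the order stands for is not given, so a low number cannot be read as a stronger peak.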
